A study of Mus musculus with 4 samples.

Results

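The histone genes described here are the 75 protein-coding genes, of 35275 genes in the table, whose GENCODE vM21 symbol starts with Hist1h, Hist2h, Hist3h, Hist4h, H2afx, H2afy, H2afz, H2afv, H3f3 or H1f. Membership was set by symbol and not by a cut on any value, but the set was chosen with earlier results of these data known. Another 8 rows with such a symbol were left out because they are not protein-coding. They were measured by RNA sequencing of double-negative regulatory T cells (DNT) of mice, which bear an αβ T cell receptor but neither CD4 nor CD8. Naive CD4 T cells were converted into DNT by an earlier published protocol, then sorted as CD3+ TCRαβ+ NK- CD4- CD8- cells. All cells were of the C57BL/6 strain. There were 2 wild-type libraries and 2 OX40-knockout libraries, named by group and replicate number. OX40, encoded by Tnfrsf4, is a member of the TNF receptor superfamily that costimulates activated T cells. Ages and the knockout allele are not given in the labels, nor whether replicates are separate animals or cultures. The p-values therefore reflect the variation among these libraries alone, and that may be technical. Series of 4 values below run in the order wild-type 1, wild-type 2, OX40-knockout 1, OX40-knockout 2, and pairs in the order of replicates.

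Histones are the proteins around which DNA is wound. A nucleosome core holds H2A, H2B, H3 and H4, and H1 binds the linker DNA between cores. Replication-dependent histone genes lie in clusters and are expressed in S phase, when new DNA must be packaged. Their mRNAs have no introns and end in a short stem-loop, held by the stem-loop binding protein SLBP, in place of a poly(A) tail. Replacement histones such as H2A.Z, macroH2A and H3.3 are made throughout the cell cycle from ordinary polyadenylated mRNAs and are placed in chromatin outside replication. H2afx, which encodes the DNA damage variant H2A.X, is known to give both kinds of mRNA.

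Of the 75 genes, 64 were replication-dependent, 10 were replacement genes and H2afx was kept as a class of its own. By GENCODE vM21, 52 replication-dependent genes lie in the Hist1 cluster on chromosome 13, 9 in the Hist2 cluster on chromosome 3, 2 in the Hist3 cluster on chromosome 11 and 1, Hist4h4, on chromosome 6. By family they comprise 6 H1, 18 H2A, 15 H2B, 12 H3 and 13 H4 genes. The replacement genes are H2afz, H2afv, H2afy and H2afy2 (H2A variants), H3f3a and H3f3b (both encoding H3.3), and the linker histones H1f0, H1fx, H1foo and H1fnt.

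The stem-loop sets the classes apart in sequence. It was searched on the transcript strand of the protein-coding GENCODE vM21 transcripts of genes in the table. The site was 16 bases with G at bases 1 and 2, T at bases 6, 7 and 9 and A at base 11. Bases 15 and 16 were C, and bases 3 to 5 were complementary to bases 12 to 14. The sites of the highest replication-dependent gene of each family, of Hist1h4m and its near copy Hist1h4n, and of H2afx are shown 5′ to 3′. Capitals mark the stem-loop and lower case the bases on either side.
Hist1h1c (H1): caaaaGGCTCTTTTCAGAGCCaccac
Hist1h2ap (H2A): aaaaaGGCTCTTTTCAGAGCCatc
Hist1h2bg (H2B): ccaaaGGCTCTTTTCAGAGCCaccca
Hist1h3c (H3): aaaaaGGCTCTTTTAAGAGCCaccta
Hist1h4i (H4): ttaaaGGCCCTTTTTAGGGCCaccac
Hist1h4m (H4): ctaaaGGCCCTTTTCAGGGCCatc
Hist1h4n (H4): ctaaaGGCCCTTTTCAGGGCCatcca
H2afx (H2A.X): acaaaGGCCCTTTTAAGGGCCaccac
In H2B the highest gene, Hist1h2bc, had no match in its annotated transcript, and Hist1h2bg, the next, stands in for it.

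A stem-loop was found in an annotated transcript of 44 of the 64 replication-dependent genes (68.8%), in H2afx, and in 0 of the 10 replacement genes. Among the 21312 other protein-coding genes 21 held a match (0.0985%). The form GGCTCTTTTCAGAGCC was the most frequent, in 24 genes of the H1, H2A, H2B and H3 families. All 12 H4 matches had another stem, most often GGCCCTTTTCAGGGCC, in 7 genes. H2afx carried a stem of the H4 kind, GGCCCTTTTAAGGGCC. Of the 20 replication-dependent genes with no match, 10 are annotated over their coding bases only, so the site lies beyond the annotated end if it is there. A poly(A) signal, AATAAA or ATTAAA in the last 50 bases, was present in 17 of 64 replication-dependent genes (26.6%), in 8 of 10 replacement genes (80.0%) and in 78.7% of other protein-coding genes. These matches describe the annotation and not the RNA in these cells.

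The annotated transcripts run on for very different lengths after the stem-loop. In Hist1h2ap only 3 bases follow it, in Hist1h4i 330 bases, in Hist1h1c 840 bases and in H2afx 822 bases. In 23 replication-dependent genes the stem-loop lay in the last 150 bases of the transcript, and in 21 only further in. Of these 21 genes, 11 also had a poly(A) signal in the last 50 bases, as H2afx had. Hist1h1c and Hist1h4i were among the 11. The classes were set by symbol, so these genes stayed in the replication-dependent class.

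How RNA was selected limits what the replication-dependent values can show. The labels name total RNA as the input and an Illumina TruSeq RNA kit, and do not state a selection step. As background, that kit captures polyadenylated RNA with oligo-dT beads, which leaves most stem-loop mRNA behind. Whether and how much of it was lost in these libraries was not tested. The values of these genes are therefore not read here as the amount of histone mRNA in the cells. Of 12 RNAs without a poly(A) tail listed as a gauge, such as Rmrp, Rn7sk and Terc, 0 could be matched to a row.

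In every library the replication-dependent genes were low and 6 of the 10 replacement genes high. The unit is RPKM, reads corrected for the length of the transcript and the size of the library, so it sets levels per length. Comparisons between genes hold only as far as the lengths, copies and RNA selection described here allow, and the unit itself was inferred from the values. Of the 64 replication-dependent genes, 10 were listed at 0 in all 4 libraries, 24 were above 0 with a mean under 1 RPKM, and 30 had a mean of at least 1 RPKM, the filter used for testing. Only 6 of them reached a mean of 5 RPKM, and 3 a mean of 10. The median over all 64 was 0.938 RPKM. The 10 replacement genes had a median of 47.0 RPKM, and 6 of them passed the filter. The median of all 11625 genes tested was 15.8 RPKM, a level that 2 replication-dependent genes exceeded.

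**Figure D1:**
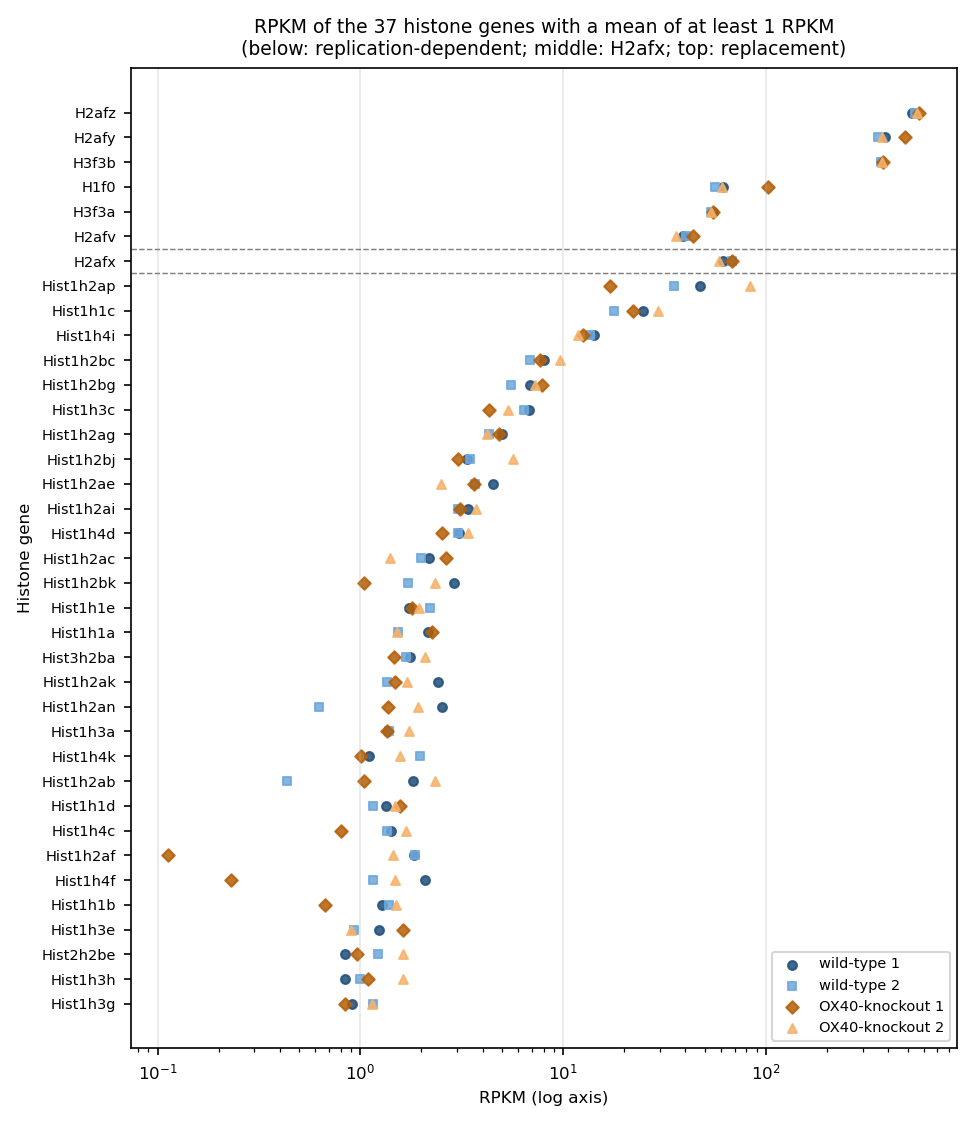
RPKM on a log axis (horizontal) of the 37 histone genes that passed the filter (vertical), with 1 symbol per library. The 6 replacement genes at the top lie above 36 RPKM in all libraries and the 30 replication-dependent genes at the bottom mostly under 10, with Hist1h2ap spread from 17.1 to 83.4 RPKM.

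H2afz, which encodes the variant H2A.Z found at promoters, was the highest histone gene. It was at 527 and 546 RPKM (wild-type) and 571 and 558 RPKM (knockout). H2afy, encoding macroH2A1, a variant with a large additional domain, was at 388 and 359 RPKM (wild-type) and 487 and 372 RPKM (knockout). Both genes varied little except for H2afy in OX40-knockout 1, which stood above the other 3 libraries.

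H3f3b and H3f3a encode the same protein, H3.3. H3f3b was at 371 and 368 RPKM (wild-type) and 380 and 374 RPKM (knockout). H3f3a was at 55.0 and 53.7 RPKM, then at 55.0 and 53.6 RPKM. These genes were the steadiest of the family across libraries, and H3f3b was the higher in each.

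H1f0, which encodes the linker histone H1.0 known from cells that have left the cycle, was at 61.6 and 56.2 RPKM (wild-type) and 103 and 60.9 RPKM (knockout), so OX40-knockout 1 alone stood apart. H2afv, encoding the second H2A.Z protein, was at 38.8, 40.3, 43.6 and 36.1 RPKM. H2afx was at 61.1, 67.8, 67.7 and 58.9 RPKM, within the range of the replacement genes. The other 4 replacement genes were at or near 0. H2afy2, encoding macroH2A2, had a mean of 0.298 RPKM, H1fx a mean of 0.141 RPKM, the oocyte gene H1foo 1 read in all, and the testis gene H1fnt none.

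Hist1h2ap (ENSMUSG00000094777), an H2A gene, was the highest replication-dependent gene and the most variable of those above 5 RPKM. It was at 47.4 RPKM (exact 95% Poisson interval 43.4 to 51.6, from 530 reads) and 35.4 RPKM (32.1 to 39.0, 416 reads) in wild-type 1 and 2. In OX40-knockout 1 it was at 17.1 RPKM (14.7 to 19.8, 183 reads) and in OX40-knockout 2 at 83.4 RPKM (78.0 to 89.0, 907 reads). The lowest and the highest value both belonged to the knockout group, and the wild-type libraries lay between. The intervals cover counting error only. The gene's identity is uncertain: 93.1% of its 50-base windows also occur in Hist1h2ao, to which the table gives 3 reads in all. Summed over both genes the reads were 531, 417, 183 and 908. With so few reads given to Hist1h2ao, this sum could hardly differ from the reads of Hist1h2ap alone. In all, 24 other genes hold some of its windows. The part of these copies in the difference between libraries was not tested.

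Hist1h1c (ENSMUSG00000036181), encoding the linker histone H1.2, followed at 24.7 and 17.9 RPKM (wild-type) and 22.2 and 29.2 RPKM (knockout). Only 8.5% of its 50-base windows also occur in another gene. How many of its reads came from those windows is not known. The other H1 genes past the filter were Hist1h1e (1.92), Hist1h1a (1.86), Hist1h1d (1.39) and Hist1h1b (1.20 RPKM). Hist1h1t, expressed in testis, was listed at 0.

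Among H4 genes, whose protein products are nearly all identical, Hist1h4i (ENSMUSG00000060639) led with 14.2 and 13.5 RPKM (wild-type) and 12.6 and 11.8 RPKM (knockout). It was the steadiest of the leading replication-dependent genes, with the knockout libraries just under the wild-type ones. Hist1h4d (2.999), Hist1h4k (1.41), Hist1h4c (1.31) and Hist1h4f (1.24 RPKM) also passed the filter, as means of the 4 libraries.

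Among H2B genes Hist1h2bc was at 8.08, 6.85, 7.70 and 9.69 RPKM, and Hist1h2bg at 6.86, 5.50, 7.83 and 7.25 RPKM, both in the order wild-type 1 and 2, OX40-knockout 1 and 2. Hist1h2bj (3.87), Hist1h2bk (2.00), Hist3h2ba (1.75) and Hist2h2be (1.16 RPKM) had lower means. Hist2h2be was the 1 Hist2 gene and Hist3h2ba the 1 Hist3 gene that passed the filter.

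By summed RPKM the H3 genes were the lowest family in every library. Hist1h3c was at 6.78 and 6.37 RPKM (wild-type) and 4.33 and 5.35 RPKM (knockout). Hist1h3a (1.46), Hist1h3e (1.17), Hist1h3h (1.14) and Hist1h3g (1.01 RPKM) had means just above the filter. The 8 other H2A genes that passed it had means from 1.31 RPKM (Hist1h2af) to 4.58 RPKM (Hist1h2ag), the rest being Hist1h2ae, Hist1h2ai, Hist1h2ac, Hist1h2ak, Hist1h2an and Hist1h2ab.

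The highest of the 24 replication-dependent genes above 0 but under the filter was Hist1h4h, with a mean of 0.982 RPKM. Of the 10 genes at 0, Hist1h1t, Hist1h2aa and Hist1h2ba are known from testis. The others were Hist1h2bq, Hist1h4b, Hist2h2aa1, Hist2h2aa2, Hist2h2ab, Hist2h3b and Hist2h3c1. A count of 0 does not show that a gene is silent. As a scale, 3 reads in a library would be between 0.0675 and 0.352 RPKM in these genes. In Hist2h2aa2 and Hist2h3c1 all 50-base windows also occur in other genes, so reads of these copies cannot be told apart from those of their partners. Over the 64 replication-dependent genes the median share of such windows was 49.6%, and 31 genes had more than 50%. In the 10 replacement genes the median was 0 and the highest share 16.9%. How reads that match several genes were treated is not stated in the labels, so the values of single replication-dependent genes are uncertain where copies are near-identical. The part of these copies in the low values was not tested.

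The classes also differ in depth. The 30 replication-dependent genes that passed the filter held from 40 to 3372 reads summed over the 4 libraries, with a median of 97, and the 6 replacement genes from 3946 to 54584.

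Summed over its 64 genes, the replication-dependent class was at 171 and 142 RPKM (wild-type) and 123 and 211 RPKM (knockout). The replacement class was at 1441, 1424, 1640 and 1455 RPKM. The replacement sum was thus 8.45, 10.03, 13.4 and 6.90 times the replication-dependent one. As a share of all histone RPKM the replication-dependent genes made up 10.2%, 8.69%, 6.70% and 12.2%. The mean share was 9.44% ± 1.06 in the wild-type and 9.47% ± 3.91 in the knockout libraries (SD, n = 2 each), and the wild-type values lay between those of the knockout libraries. The knockout spread lay largely in 1 gene. Without Hist1h2ap the replication-dependent sums were 123, 107, 106 and 128 RPKM.

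The gap between the classes was widest in H3. The 12 replication-dependent H3 genes summed to 13.7, 13.7, 10.6 and 13.4 RPKM, and H3f3a and H3f3b to 426, 422, 435 and 428 RPKM, a ratio of 31.0, 30.7, 41.1 and 31.97. In H2A the ratio of replacement to replication-dependent sums was 13.0, 17.2, 28.9 and 9.24, the order of libraries being the reverse of that of Hist1h2ap. In H1 it was 1.98, 2.33, 3.62 and 1.71. H2B and H4 have no replacement gene among the members. They summed to between 24.1 and 32.6 RPKM and between 20.3 and 25.1 RPKM.

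**Figure D2:**
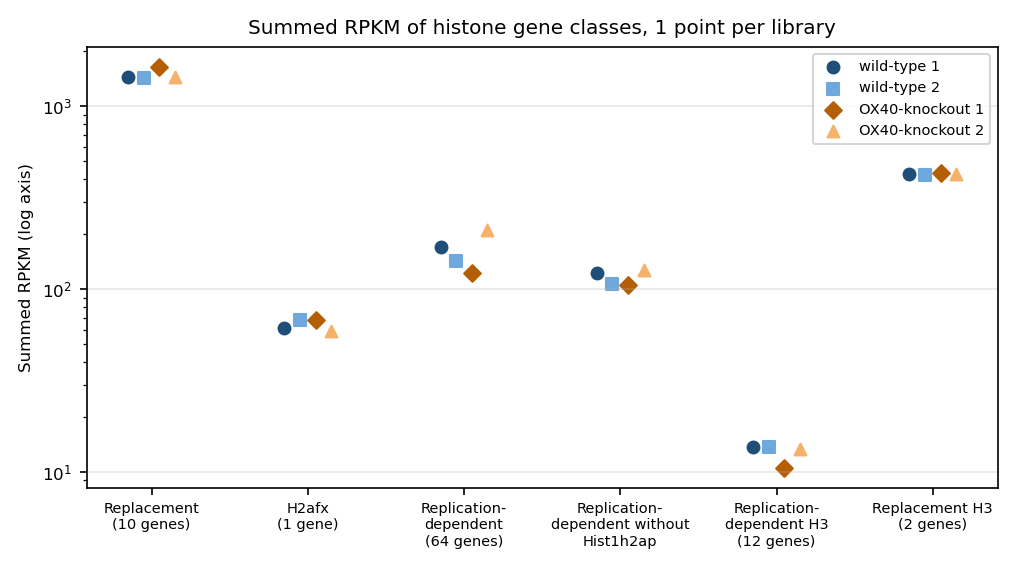
Summed RPKM on a log axis (vertical) of the histone classes (horizontal), with 1 point per library. The replacement genes sum to 1424 RPKM or more in each library and the replication-dependent genes to at most 211, and the spread of the latter between the knockout libraries narrows without Hist1h2ap.

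Gene by gene, listed genes of S phase were at far higher levels. All 23 genes of a list of S phase genes passed the filter, with a median of 44.9 RPKM. Pcna, the sliding clamp of DNA polymerase, was at 407 and 418 RPKM (wild-type) and 349 and 426 RPKM (knockout). The 64 replication-dependent histone genes, a class whose mRNAs rise in the same phase, had their median at 0.938 RPKM. That median includes 10 genes at 0, some of them known from testis. Summed per library, the histone class lay between 123 and 211 RPKM and the 23 S phase genes between 1654.3 and 1788.5 RPKM. The part of RNA selection, of sequence shared between copies or of the choice of genes in this gap was not tested.

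The length by which the authors' values were scaled bears on the levels too. For 35 of the 54 replication-dependent genes above 0, the values gave whole reads at the annotated transcript length. The other 19 gave whole reads only at another length, and in 10 of these the shortest such length was under 75% of the annotated one. Hist1h2ac gave whole reads at 476 bases where the annotation has 2482, with the stem-loop ending at base 472. Hist1h4d did so at 393 bases, with the annotation at 1138 and the stem-loop ending at base 368, and Hist1h1d at 744 bases against 7425. Hist1h2ac and Hist1h4d were thus scaled by a length close to the stem-loop form of the mRNA, up to a whole multiple that the values do not settle. Where the length behind the values ran 150 bases or more past the stem-loop (12 genes), the genes held 44.8% of all replication-dependent reads, most of them in Hist1h1c. The 32 genes where it ran less far, or ended before the stem-loop, held 40.9%. The 20 genes with no stem-loop in the annotation held 14.3%. Lengths were counted from the annotated start, which the values do not show. Genes at 0 in all libraries were placed by their annotated length. For the 19 genes with a fitted length, the shortest length that gave whole reads was taken. The groups and shares could therefore move where the true length is a multiple of it. The RPKM values do not show where in a transcript the reads lay, so reads of a stem-loop form and of a longer polyadenylated form of the same gene cannot be told apart.

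**Figure D3:**
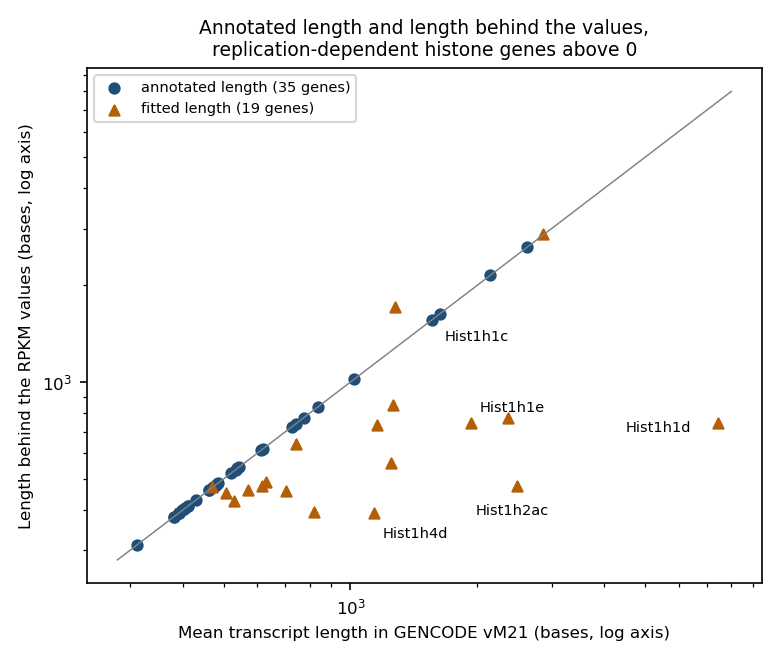
Length behind the RPKM values (vertical) against the mean transcript length in GENCODE vM21 (horizontal), both in bases on log axes, for the 54 replication-dependent genes above 0. Circles on the line are the 35 genes at the annotated length, and triangles the 19 at a fitted length, of which Hist1h1d, Hist1h2ac, Hist1h1e and Hist1h4d lie well under the line.

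Knockout and wild-type libraries were compared to ask whether histone gene expression differs in DNT that lack OX40. No histone gene passed the test. Values were compared as log2(RPKM + 1) with limma, and of the 37 members tested 0 had a Benjamini-Hochberg adjusted p under 0.05, as had 0 of all 11625 genes (0.0%). At an unadjusted p under 0.05 there were 0 of 37 members, against 162 genes in all (1.39%). The lowest adjusted p of a member was 0.975. Changes below are log2 differences of knockout minus wild-type on the log2(RPKM + 1) scale, which understates the change of low genes. In bulk samples, fewer cells of a type and less RNA per cell cannot be told apart.

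Among replacement genes H1f0 had the largest change, 0.42 with a standard error (SE) of 0.26, and it rested on OX40-knockout 1. Without that library the change was 0.05, and without OX40-knockout 2 it was 0.79. H2afy followed with 0.19 (SE 0.16), also through OX40-knockout 1. H2afz (0.07, SE 0.11) and H3f3b (0.03, SE 0.10) had both knockout libraries above both wild-type ones, by small amounts. The same order held in 8.66% of all genes tested. H2afv was at 0.01 (SE 0.13), H3f3a at -0.00 (SE 0.10) and H2afx at -0.03 (SE 0.12), all with overlapping groups. With the GC correction H2afx was at -0.20 (SE 0.11). The median of the 6 tested replacement genes was 0.05, against -0.03 for all genes tested, with 5 of 6 above 0 as against 43.4% of all genes. It was 0.01 without OX40-knockout 1 and 0.11 without OX40-knockout 2.

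Among the 30 tested replication-dependent genes 14 changes were above 0 and 16 under it, against 43.4% above 0 over all genes tested. The median over the 30 genes was -0.03. With quantile normalization this median was 0.01, so no direction is given for the class. Both knockout libraries lay under both wild-type ones in 4 genes, Hist1h3c, Hist1h4i, Hist1h2ae and Hist1h2af. This order was found in 17.8% of all genes tested. They lay above in 3 genes, Hist1h1d, Hist1h2bg and Hist1h3h, an order found in 8.66% of all genes. Hist1h3c was at -0.38 (SE 0.16, limma adjusted p = 0.975) and Hist1h4i at -0.17 (SE 0.12). Hist1h2ae was at -0.33 (SE 0.21), Hist1h2bg at 0.26 (SE 0.16), Hist1h3h at 0.29 (SE 0.22) and Hist1h1d at 0.17 (SE 0.19). Some of these values moved widely. Hist1h3h was at 0.0055 with the GC correction, and between 0.13 (without OX40-knockout 2) and 0.45 (without OX40-knockout 1) when a library was left out. Hist1h2ae lay between -0.53 without OX40-knockout 1 and -0.13 without OX40-knockout 2, and Hist1h2bg between 0.12 without wild-type 2 and 0.39 without wild-type 1. Hist1h1d was at 0.33 with the GC correction. None of these 7 genes passed the limma test.

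Hist1h2ap had the widest error, with a change of -0.10 (SE 0.74). Without OX40-knockout 1 it was 1.01 (SE 0.19), and without OX40-knockout 2 -1.21 (SE 0.19), so each knockout library alone gave an opposite direction. Hist1h1c was at 0.26 (SE 0.22), but at 0.04 without wild-type 2, 0.07 without OX40-knockout 2, 0.49 without wild-type 1 and 0.45 without OX40-knockout 1. Hist1h2af was at -0.79 (SE 0.41) from 17 and 18 reads in the wild-type and 1 and 13 reads in the knockout libraries, and only OX40-knockout 1 stood apart. Without that library it was at -0.22, without OX40-knockout 2 at -1.35, and with a pseudocount of 0.1 at -1.76.

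Of the 24 replication-dependent genes above 0 but under the filter, 4 had both knockout libraries above both wild-type ones, Hist1h2ad and the H4 genes Hist1h4m, Hist4h4 and Hist2h4. That order was found in 14.8% of all genes above 0 and under the filter. Hist1h4m was at 0 reads in both wild-type libraries, with upper ends of the exact 95% Poisson intervals at 0.395 and 0.376 RPKM. It was at 8 reads in each knockout library (0.896 and 0.882 RPKM, intervals 0.387 to 1.76 and 0.381 to 1.74). The interval of wild-type 1 overlapped those of both knockout libraries, and that of wild-type 2 overlapped neither. Hist1h4m was singled out after its values were seen. Hist4h4 had 14 and 11 reads (wild-type) and 18 and 18 (knockout), and Hist2h4 had 5 and 5, then 10 and 7. The near copy of Hist1h4m, Hist1h4n, which holds 89.8% of its 50-base windows and the same stem-loop, had 9 and 10 reads in the wild-type and 1 and 10 reads in the knockout libraries. Summed over the pair, the reads were 9 and 10 in the wild-type and 9 and 18 in the knockout libraries, so wild-type 2 exceeded OX40-knockout 1 by 1 read.

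Across libraries, OX40-knockout 1 was high in replacement genes. Over the 6 tested replacement genes OX40-knockout 1 was the highest library in 5, an order seen in 36.9% of all genes. Over the 30 replication-dependent genes it was the lowest in 13, against 42.6% of all genes. Its median deviation from the 4-library mean of log2(RPKM + 1) was -0.10 over the replication-dependent and 0.10 over the replacement genes. In OX40-knockout 2 the medians were 0.15 and -0.06, and in wild-type 1 and 2 they were 0.07 and -0.06 for the replication-dependent genes. The knockout libraries thus departed in opposite directions in both classes.

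**Figure D4:**
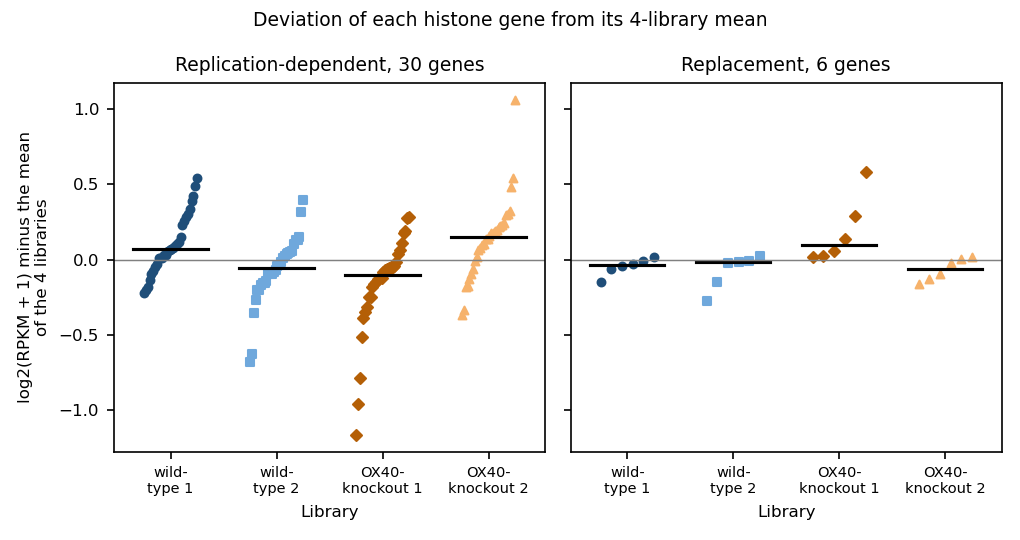
Deviation of each tested gene from its 4-library mean of log2(RPKM + 1) (vertical) in each library (horizontal), with points sorted within a library and bars at the median. Over the replication-dependent genes the medians of the knockout libraries are -0.10 and 0.15, and over the replacement genes 0.10 and -0.06.

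The knockout libraries were at least 2-fold apart on that scale in 3 of the 30 replication-dependent genes, against 4.97% of all genes. Between the wild-type libraries this held for 1 gene, against 1.14% of all. Within replicate 1 (wild-type 1 and OX40-knockout 1) it held for 3 genes against 2.49%, and within replicate 2 for 2 genes against 0.499%. In the 6 replacement genes it held for 0 in each of these pairs. OX40-knockout 1 also stood apart in GC content. Over all genes its median deviation ran from -0.18 at the lowest GC (5 equal classes) to 0.21 at the highest, while the replication-dependent genes had a median GC content of 56.6% and the replacement genes of 52.4%, against 50.5% over all genes. Cell type markers moved with the libraries as well. Of the 2 NK cell markers, Klrb1c was at 98.5 and 160 RPKM (wild-type) and 42.8 and 159 RPKM (knockout). Ncr1 was at 0.408, 7.93, 0.183 and 7.49 RPKM, lower in replicate 1 of both groups. Cd4 was at 0.820, 1.97, 10.1 and 2.06 RPKM. Cd8a was at 10.5, 10.4, 16.6 and 9.03 RPKM and Cd8b1 at 3.37, 2.49, 4.44 and 2.00 RPKM, in cells sorted as CD8-. The 4 myeloid markers summed to 4.02, 9.02, 2.63 and 6.40 RPKM. The 3 erythroid markers summed to 2.89, 0.691, 4.70 and 1.26 RPKM. All 4 T cell markers were well above the filter, at 40.1 RPKM or more, and the 3 B cell markers summed to at most 0.951 RPKM, with Ms4a1 at 0. The part of GC content or of other cells in the histone values was not tested.

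Tnfrsf4 itself was at 18.2 and 12.3 RPKM (wild-type) and 12.1 and 9.38 RPKM (knockout). Its change was -0.46 (SE 0.23, limma adjusted p = 0.975), so it did not pass the test. The labels do not name the deleted exons, and these values are therefore a weak check of the knockout.

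Of 14 genes for the synthesis and 3′ processing of histone mRNA, 13 were tested and 0 passed. Their changes were above 0 in 3 and under it in 10, with a median of -0.09. Over all genes tested 43.4% of changes were above 0, with a median of -0.03. Slbp, which binds the stem-loop, was high at 136 and 134 RPKM (wild-type) and 107 and 130 RPKM (knockout). Its change of -0.19 (SE 0.13) was the lowest of the list. Npat, the coactivator of histone gene transcription, was at 11.5, 11.2, 9.40 and 11.5 RPKM. Casp8ap2, a component of histone locus bodies, was at 18.4, 19.4, 15.3 and 18.8 RPKM. OX40-knockout 1 was the lowest library in these 3 genes, in 8 of the 13 tested genes of the list, and in 42.6% of all genes, and it was the highest in the other 5 of the list. Lsm10 and Lsm11, parts of the U7 particle that cuts histone pre-mRNA, had means of 30.7 and 4.95 RPKM, and Zfp473, which binds that particle, had a mean of 1.36 RPKM. Sympk, a scaffold of the cleavage complex, had the highest change, 0.18 (SE 0.16).

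Of 26 histone chaperones and exchange factors, which carry histones to DNA, all were tested and 0 passed. There were 8 changes above 0 and 18 under it, against 43.4% above 0 over all genes tested. The median was -0.07, against -0.03 over all genes. Hira, the H3.3 chaperone of active genes, was at 6.998 and 7.88 RPKM (wild-type) and 8.83 and 8.40 RPKM (knockout). Daxx and Atrx, which place H3.3 in heterochromatin, had means of 38.9 and 182 RPKM, and Daxx had the highest change of the list, 0.22 (SE 0.18). Chaf1a, a subunit of the replication-coupled assembly factor CAF-1, had a mean of 18.9 RPKM, the H3-H4 chaperone Asf1b of 54.1 RPKM and Nasp of 66.0 RPKM. Asf1a had the lowest change, -0.24 (SE 0.16), from 9.27 and 10.4 RPKM in the wild-type to 7.37 and 8.98 RPKM in the knockout libraries.

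Among the 23 S phase genes 0 passed, and 5 changes were above 0 and 18 under it, against 43.4% above 0 over all genes. The median was -0.10, against -0.03 over all genes tested. In 11 genes both knockout libraries lay under both wild-type ones, an order found in 17.8% of all genes tested. The lowest change was that of Pola1, a DNA polymerase subunit, at -0.24 (SE 0.14), and the highest that of E2f1, a transcription factor of S phase entry, at 0.18 (SE 0.20). Of histone genes outside the symbol rule, Cenpa, the centromeric H3, was at 98.9 and 102 RPKM (wild-type) and 90.5 and 94.2 RPKM (knockout), with a change of -0.12 (SE 0.10). H2afj was at 51.4, 54.7, 59.2 and 53.4 RPKM, with a change of 0.08 (SE 0.11). Neither passed the test, and both lay in the range of the replacement genes.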

How the data were processed

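The authors deposited 1 table of values per gene and library whose header names no unit. The values fitted RPKM, as the deposited numbers were whole reads at annotated lengths for between 82.6% and 83.2% of single-transcript genes (tolerance 0.02). The library totals this gave were, in reads, 23215528 (wild-type 1), 24395743 (wild-type 2), 22220888 (OX40-knockout 1) and 22571186 (OX40-knockout 2). Reads of the 64 members above 0 came from the annotated length (40) or, where that gave no whole numbers (tolerance 0.01), from the shortest length that did (24), so some reads may be several-fold too low. Per the submitters' processing notes, Bowtie 0.12.2 and mm8 were used. Counting, strand and the treatment of multiple matches are not given in the sources used. GENCODE vM21, an annotation of another build, named 34490 of the IDs, so no coordinates are given. Its transcripts gave the sequences.

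limma 3.58.1 in R 4.3.3 tested log2(RPKM + 1) over the 11625 genes whose mean was 1 RPKM or more, with all 4 libraries, a mean-variance trend, no block, and Benjamini-Hochberg adjustment (threshold 0.05) over every tested gene. The script was tested on simulated data. Preparation used Python 3.11.15, pandas 2.3.3 and matplotlib 3.10.9. Members with a mean of at least 1 RPKM were named with values or ranges, with the defining and most changed genes of each list. The members and lists were chosen with earlier results of these data known. Alternatives were a pseudocount of 0.1, no filter, other scalings, a GC correction, a replicate block and leaving out each library. Intervals cover counting error only.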

Additional observations from a re-analysis of the deposited data

How the results depend on the processing

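No histone gene passed an adjusted p of 0.05 under any alternative run. Over all genes the number called was 0, but 1 with quantile normalization, 5 with the replicate block, 1 with the block and the GC correction, and between 0 and 1 when a library was left out (1 without wild-type 2). Genes at an unadjusted p under 0.05 numbered 162, against 603 with no filter, 373 with the block, 461 with the block and the GC correction, and between 76 and 3832 when a library was left out, the highest number being without OX40-knockout 2. Histone genes at that p numbered 0, against 3 with no filter (Hist1h4m, Hist1h2ad and Hist1h3b), 2 with the block (H1f0 and Hist1h2af), 1 with the block and the GC correction (H1f0), and between 0 and 6 when a library was left out. The 6 were found without OX40-knockout 2, where the lowest adjusted p of a histone gene was 0.0557, for H1f0. In the fits that leave a group with 1 library, that library is assumed to vary like the other group. The replicate numbers are not stated to pair the libraries. Across genes, the difference of replicate 1 and replicate 2 in the wild-type correlated with that in the knockout group with r = 0.469, and the block changed no call of a histone gene.

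The wild-type share of replication-dependent genes was 9.44%, and 7.13% without Hist1h2ap. The change of H3f3a was -0.0022, against 0.0203 with median-of-ratios factors and 0.00885 with quantile normalization. Leaving out a library gave changes from -1.21 to 1.01 for Hist1h2ap, from -0.13 to 0.0716 for H2afx (which was at -0.20 with the GC correction, with or without the block), from -0.00356 to 0.38 for H2afy, from -0.0208 to 0.0164 for H3f3a and from -0.13 to 0.14 for H2afv. Over the 37 tested histone genes 9 took the other sign in at least 1 alternative that kept all libraries, and 24 when a library was left out. When a library was left out, the median over replication-dependent genes lay between -0.10 and 0.11, and that over replacement genes between 0.01 and 0.11. The cause of these shifts was not tested. The tested replication-dependent genes held a median of 97 reads over the 4 libraries and the replacement genes many more, and neither class had a call, so the effect of depth on calls was not tested.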
